A study of Mus musculus with 71 samples.

Results

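The genes of central myelin described here are 9 transcripts of mature oligodendrocytes, Mbp, Mobp, Mog, Mag, Cnp, Mal, Cldn11, Opalin and Ermn, chosen by name as a marker set and read in all 71 libraries of a mouse brain series. They are 9 of the 55416 gene identifiers in the count table, and all 9 passed the filter on low counts in every comparison. The series asked what a skin burn does to gene expression in the brain, with bulk RNA sequencing of tissue pieces labelled as mixed brain tissue from C57BL/6J mice. The hippocampus gave 10 burn, 10 excision and 9 sham libraries, the frontal cortex gave 10, 10 and 8, and the piriform cortex gave 5, 4 and 5.

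Burned mice had a full-thickness wound from a brass rod of 19 mm, heated above 90 °C and held on the right flank for 10 s, which covered 7 to 8% of the body surface. Excised mice had a full-thickness wound cut along a 12 mm punch mark, which by the protocol widened to the size of the burn. Sham mice were shaved without a wound. All groups had isoflurane anaesthesia and 0.1 mg/kg buprenorphine, and the protocol lists drinking water with 1 mg/mL paracetamol for 5 days after injury. The sources used here give neither the age of the mice nor the time from injury to tissue collection, nor which libraries come from the same animal, so p-values measure the spread between libraries. Hippocampus and frontal cortex libraries carry the batch labels 1 and 2. The piriform cortex is batch 3 alone, so that region and batch cannot be told apart there. All 14 libraries called piriform here have titles that say frontal cortex of batch 3. The tissue and source fields say piriform cortex and were followed, so every piriform value below rests on those fields.

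Library totals ran from 6652468 to 87775812 counts (median 57006382), and the shallowest were 4 hippocampus libraries under 10000000 counts. Even there the members were well counted: the lowest count of any member in any library was 112, for Opalin. The titles of 4 libraries disagree with the treatment field, by which the groups were assigned. These are burn replicates 7 and 8 and excision replicate 7 of the frontal cortex and sham replicate 2 of the piriform cortex, and for the comparisons they enter, the members' medians are also given without them.

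Oligodendrocytes wrap axons of the brain in many layers of membrane, the myelin sheath, which speeds conduction and feeds the axon. Precursor cells divide, pass through a short newly formed stage and then switch on the myelin genes together under transcription factors such as Sox10 and Myrf. White matter tracts hold far more of these cells than grey matter, so a dissected block of cortex or hippocampus carries more or less myelin RNA with the amount of tract it includes. In bulk tissue, fewer oligodendrocytes and less myelin RNA per cell cannot be told apart.

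The promoters of 4 members are shown because these transcripts mark the extremes of how the set varied together. Mog and Cnp were the most tightly linked pair, and Ermn departed from the rest. Mobp had the widest range in the hippocampus and piriform cortex, at 3.7-fold and 5.92-fold. In the frontal cortex Ermn had the widest, at 3.06-fold, beside 2.92-fold for Mobp. Each sequence is the 250 bases before the RefSeq start on the gene's own strand, from a RefSeq table on GRCm38.p6 that holds 8 of the 9 members in 10 windows. Mbp is not among them. Capitals mark the letters ACAANG or CNTTGT, a SOX-type pattern, and CTGGNAC or GTNCCAG, a Myrf-type pattern, each read on either strand. N stands for any base, so both patterns are looser than the cores these proteins bind. The windows are chr17:37023399-37023648 (minus strand) for Mog, chr11:100574689-100574938 (plus strand) for Cnp, chr9:120149492-120149741 (plus strand) for Mobp and chr2:58052865-58053114 (minus strand) for Ermn.
Mog: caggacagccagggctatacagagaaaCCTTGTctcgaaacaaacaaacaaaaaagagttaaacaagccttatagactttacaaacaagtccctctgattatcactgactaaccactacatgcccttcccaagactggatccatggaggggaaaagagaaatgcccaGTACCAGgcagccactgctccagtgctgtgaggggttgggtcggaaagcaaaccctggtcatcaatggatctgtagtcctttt
Cnp: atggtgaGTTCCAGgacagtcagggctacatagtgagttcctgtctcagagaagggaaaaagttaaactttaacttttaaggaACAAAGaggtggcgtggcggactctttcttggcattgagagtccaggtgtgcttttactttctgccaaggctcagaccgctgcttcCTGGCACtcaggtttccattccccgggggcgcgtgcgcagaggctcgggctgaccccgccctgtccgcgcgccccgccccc
Mobp: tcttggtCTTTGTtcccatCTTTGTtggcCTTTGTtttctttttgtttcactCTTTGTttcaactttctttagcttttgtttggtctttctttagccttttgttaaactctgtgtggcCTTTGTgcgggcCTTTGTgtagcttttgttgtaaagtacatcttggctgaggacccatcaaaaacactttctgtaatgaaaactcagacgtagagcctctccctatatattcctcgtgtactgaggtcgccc
Ermn: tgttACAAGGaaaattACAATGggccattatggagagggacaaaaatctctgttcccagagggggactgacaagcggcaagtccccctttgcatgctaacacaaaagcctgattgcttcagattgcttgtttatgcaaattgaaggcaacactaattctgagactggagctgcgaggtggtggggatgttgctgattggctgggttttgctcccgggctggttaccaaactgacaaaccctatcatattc

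The Mog window held 1 match to the SOX letters and 1 to the Myrf letters, and the Cnp window held 1 and 2. Mobp had 6 SOX matches, the farthest 243 and the nearest 120 bases before the start, and no Myrf match. Ermn had 2 SOX matches, 246 and 234 bases before the start, and no Myrf match. Of the 10 windows, 3 belong to Mag, and 2 of these overlap. By gene, 6 of 8 members had the SOX letters in at least 1 window and 3 of 8 the Myrf letters, and by window the counts were 8 and 4 of 10. Among all 32851 windows of that length in the table, 36.3% held the SOX letters and 16.1% the Myrf letters, also counted by window. These are matches of letters in a short window and do not show binding.

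Levels are in CPM (counts per 1000000 counts of a library), corrected with trimmed-mean (TMM) factors over all 71 libraries. Mbp, whose protein glues the inner faces of the membrane layers together, was the most abundant. It lies on chromosome 18 (82475146 to 82585637, plus strand, GRCm38, GENCODE M21) and its gene model also spans the longer Golli transcripts of the same gene. In the hippocampus Mbp ran from 707 to 1947 CPM, in the frontal cortex from 684 to 1993 and in the piriform cortex from 738 to 2841. Together the 9 transcripts made up 0.117% to 0.475% of a library's counts, a 4.06-fold range, and Mbp supplied 49.4% to 60.6% of that sum.

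Per kilobase of merged exons, Mbp was again highest in every region, at 159 ± 36.7 CPM per kb in the hippocampus (SD, n = 29), 144 ± 38.5 in the frontal cortex (SD, n = 28) and 158 ± 68.5 in the piriform cortex (SD, n = 14). Cnp, a phosphodiesterase that keeps cytoplasm channels in myelin open, followed at 79.2 ± 14.5, 70.1 ± 13.6 and 72.8 ± 22.6 CPM per kb, in the piriform cortex within 1 SD of the next. Next came Mal, a membrane-sorting proteolipid, Cldn11, the tight-junction protein of myelin, and Mobp, a second basic protein of compact myelin. In the hippocampus these stood at 62.1, 61.2 and 57 CPM per kb, and the gaps between them were smaller than 1 SD in each of the regions. Mag, an adhesion protein of the membrane next to the axon, and Mog, an immunoglobulin-fold protein of the outermost layer, followed at 37.1 and 29.2 in the hippocampus. The Mag and Mog levels differed by less than the larger SD in both cortices and by more in the hippocampus. Lowest were Ermn, a cytoskeletal protein of mature oligodendrocytes, at 10 ± 2.35 CPM per kb, and Opalin, a glycoprotein of central myelin, at 6.67 ± 1.69 (hippocampus, SD, n = 29). That order of the last pair held in all 3 regions, with a gap over 1 SD.

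For 3 members another gene shares exonic bases. The Cnp exons overlap 154 bases of Dnajc7 on the opposite strand, and Dnajc7 had 43.3% as many counts as Cnp. Ermn shares 237 bases with Galnt5 on the opposite strand, which had 0.147% as many counts, and Mobp shares 79 bases with Gm38642 on its own strand (0.083%). The sources used here do not say whether the counting used strand, so the Cnp value is the least certain of the set.

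**Figure D1:**
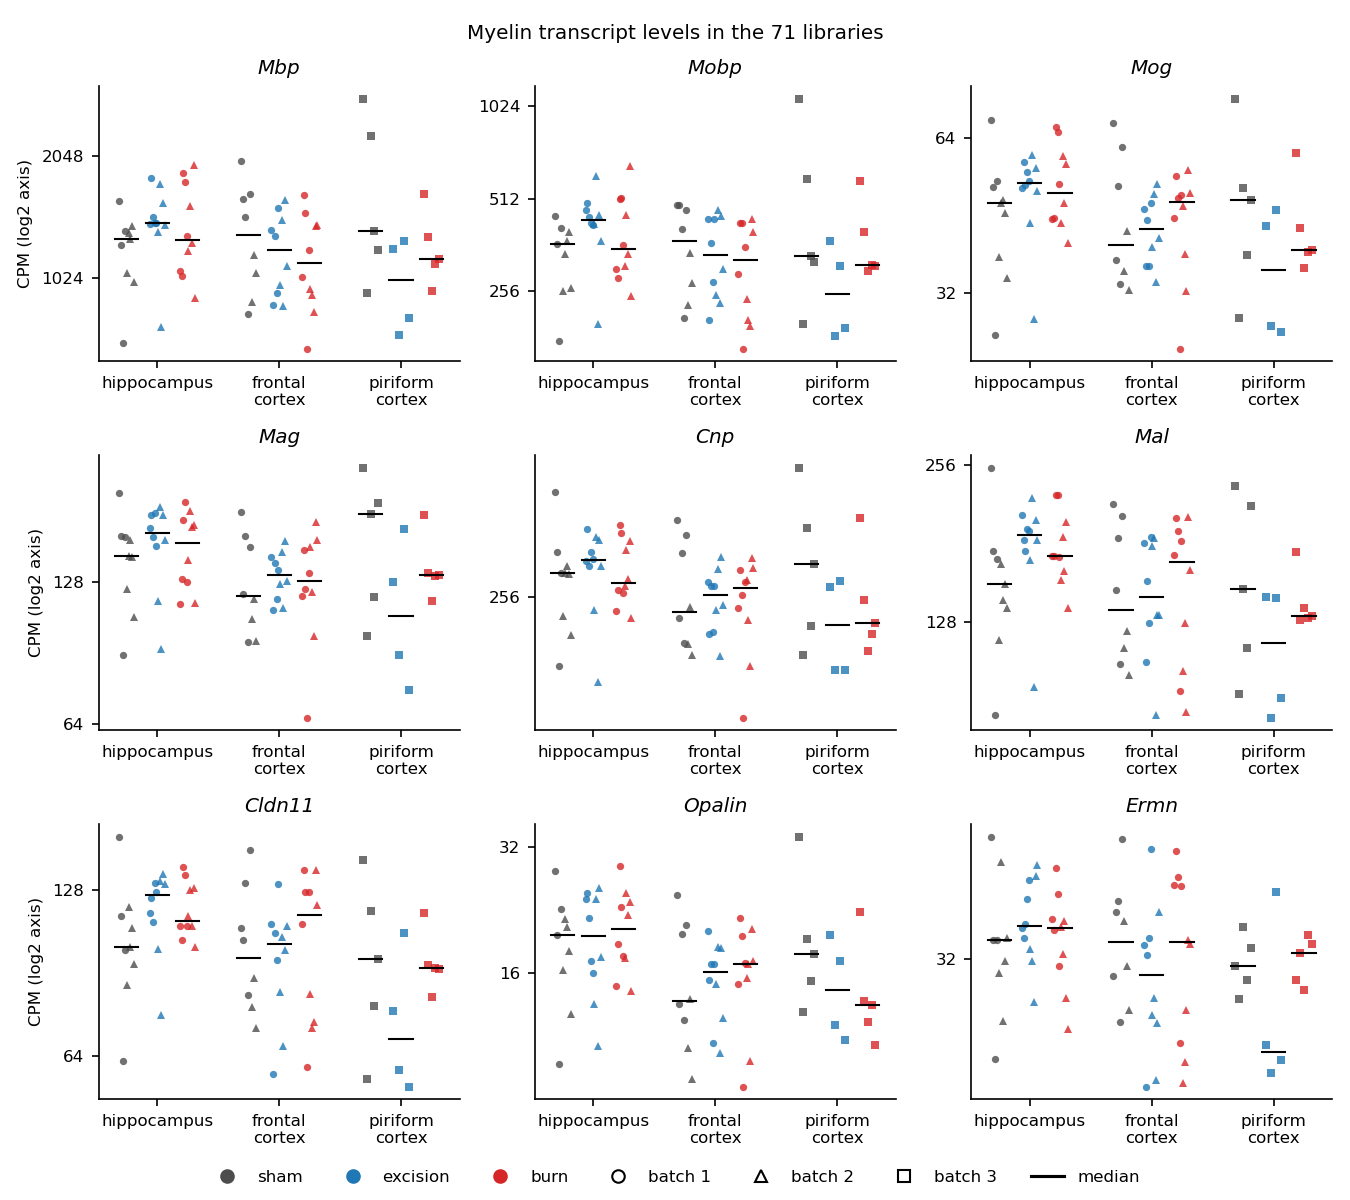
Level of each transcript in every library, in CPM on a log2 axis, by region and, within a region from left to right, sham, excision and burn; shapes mark batches and black lines the median. Each group spreads widely, the groups of a region overlap for all 9 transcripts, and piriform sham replicate 1 is the highest piriform library for 8 of them.

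Across the sham libraries, no member passed the test between regions (edgeR quasi-likelihood test, Benjamini-Hochberg adjusted p under 0.05 over all genes tested). This stands against 39.4% of 21965 genes called between hippocampus and frontal cortex, 11.9% between piriform and frontal cortex and 34.7% between hippocampus and piriform cortex. Sham Mbp had a lowest, median and highest level of 707, 1277 and 1589 CPM in the hippocampus (n = 9) and 831, 1304 and 1993 CPM in the frontal cortex (n = 8). In the piriform cortex the 5 sham libraries had 2841, 937, 2299, 1332 and 1196 CPM. The 3 regions overlapped, and the piriform range took in nearly all values of the others.

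Between sham hippocampus and sham frontal cortex, the median log2 difference of the 9 members was 0.13, beside -0.013 over all genes, and 7 of the 9 were higher in the hippocampus. Opalin had the largest difference, with a log2 difference of 0.40 (SE 0.21, edgeR adjusted p = 0.133). No member had an unadjusted p under 0.05, beside 46.9% of all genes, and DESeq2 called none. In batch 1 alone the median was -0.01 and in batch 2 alone 0.28. Without hippocampus sham replicate 3, Opalin alone passed the test, with a log2 difference of 0.52 (edgeR adjusted p = 0.0370).

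Sham piriform and sham frontal cortex differed by a median of 0.31 (log2) over the members, beside 0.012 over all genes, with 8 of 9 higher in the piriform cortex. Mag (0.41, SE 0.19, edgeR adjusted p = 0.179) and Opalin (0.49, SE 0.24, adjusted p = 0.188) had an unadjusted p under 0.05. So did 26.5% of all genes in that comparison. Without piriform sham replicate 1 the median was 0.10 and no member had such a p. Without piriform sham replicate 2, the library titled as excision, the median was 0.44 and 5 members had such a p. The share of all genes with such a p was not counted in these left-out fits. Between hippocampus and piriform cortex the median was -0.09, beside -0.028 over all genes, and Mbp had the smallest p, with a log2 difference of -0.52 (SE 0.23, adjusted p = 0.0805). The median turned to 0.13 without piriform sham replicate 1 and was -0.21 without replicate 2. Mbp alone passed without any 1 of hippocampus sham replicate 1, frontal cortex sham replicate 4 or piriform sham replicate 5, and Mbp and Mobp passed without piriform sham replicate 2.

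Of 15 genes of precursors and newly formed oligodendrocytes, 8 passed the test as lower in the sham hippocampus than in the sham frontal cortex and none as higher, in a comparison where 39.4% of all genes were called. The receptor Pdgfra and the proteoglycan Cspg4, which define precursors, were not called (-0.22, adjusted p = 0.109, and 0.07, adjusted p = 0.556). Nor were Gpr17 (-0.07, adjusted p = 0.590) and Enpp6 (-0.15, adjusted p = 0.485), which mark newly formed cells. Lhfpl3, a precursor marker, was lower by a log2 difference of -1.21 (SE 0.16, adjusted p = 1.38e-06), and Cacng4, an AMPA receptor auxiliary subunit of precursors, by -0.87 (SE 0.16, adjusted p = 0.000155). Fyn, a kinase that acts early in myelination, differed by -0.32 (SE 0.06, adjusted p = 0.000230), Pcdh15, a cadherin, by -0.77 (SE 0.17, adjusted p = 0.000859) and Vcan, a matrix proteoglycan, by -0.50 (SE 0.12, adjusted p = 0.00259). Of 20 other structural myelin genes, Pllp, a proteolipid of myelin, was higher in the hippocampus (0.67, SE 0.16, adjusted p = 0.00203) and Pmp22 was lower (-0.30, SE 0.10, adjusted p = 0.0179). Of 12 transcription factors of the lineage, St18 was higher (2.07, SE 0.24, adjusted p = 2.56e-07), a gene that neurons can also express. Of 20 genes of myelin lipid synthesis and metabolism, Fdps, an enzyme of the sterol pathway, was higher in the hippocampus (1.85, SE 0.14, adjusted p = 2.26e-10) and Insig1, a sterol sensor, was lower (-0.35, SE 0.06, adjusted p = 1.83e-05). In the same comparison all 7 striatum markers were lower in the hippocampus (median -2.39) and all 6 choroid plexus markers higher (median 4.45), and their part in these differences was not tested.

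Injury was compared within each region. In the hippocampus, Mbp had a lowest, median and highest level of 707, 1277 and 1589 CPM in sham (n = 9), 771, 1397 and 1809 in excision (n = 10) and 913, 1270 and 1947 in burn (n = 10). Mobp stood at 177, 366 and 449 CPM in sham, 200, 437 and 605 in excision and 248, 351 and 655 in burn. The 3 groups overlapped almost entirely for both, and all 9 members overlapped in each pair of groups. Hippocampus burn and excision are compared with the same sham libraries.

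No member was called in the hippocampus. For burn against sham, 1.03% of 19574 genes were called, and the median over the 9 members was a log2 fold change of 0.16, beside 0.012 over all genes. Of the 9, 8 were higher, with values from 0.00 (Ermn) to 0.22 (Mobp, SE 0.18, edgeR adjusted p = 0.551). Between burn and excision the share of genes called was 0.209% and the members' median -0.03, beside 0.009 over all genes. For excision against sham no gene was called (0.00%; 727 of 19574 had an unadjusted p under 0.05), and all 9 members were higher, with a median of 0.13 beside -0.004. Mobp again had the largest value, 0.34 (95% interval -0.03 to 0.72, adjusted p = 0.852). With all libraries, unadjusted p was under 0.05 for none of the 9 in these 3 comparisons, and DESeq2 called none. Over all genes, 17.7% had such a p for burn against sham and 3.71% for excision against sham. Without the 4 libraries under 10000000 counts, 2 members had such a p for burn against sham and 2 for excision against sham. The medians were then 0.24 and 0.20, and 0 members were called.

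The hippocampal medians rested partly on sham replicate 3, the lowest sham library for all 9 members. Without it the median was 0.08 for burn against sham and 0.04 for excision against sham. Without sham replicate 1, the highest sham library for all 9 and one of the 4 shallow ones, they were 0.23 and 0.20. Within batch 1 and batch 2 the burn against sham median was 0.10 and 0.19. The difference between batches called 0 members in any of the 3 comparisons, beside 0.0460%, 0.0307% and 0.0358% of all genes.

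In the frontal cortex the members sat closest to no difference. Mbp had a lowest, median and highest level of 831, 1304 and 1993 CPM in sham (n = 8), 870, 1197 and 1598 in excision (n = 10) and 684, 1114 and 1643 in burn (n = 10). Ermn had 24.1, 34.5 and 55.1 CPM in sham, 18, 29.8 and 52.8 in excision and 18.3, 34.6 and 52.2 in burn. All groups overlapped for all members. Burn against sham gave a median of 0.00 (beside -0.016 over all genes), with 4 members higher and 5 lower and 0.280% of 21077 genes called. Burn against excision gave 0.04 (beside -0.011; 0.209% of genes called), and excision against sham -0.04 (beside -0.006; 0.00% called, with 1007 genes at an unadjusted p under 0.05). The values farthest from 0 in this region were -0.17 for Mbp in burn against sham (SE 0.17, adjusted p = 0.721) and -0.17 for Ermn in excision against sham (SE 0.19, adjusted p = 0.969). No member was called by edgeR or DESeq2, and none had an unadjusted p under 0.05. The 95% intervals of all members in the 3 comparisons of this region lay between -0.60 and 0.51.

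The 2 batches of the frontal cortex gave opposite directions. In batch 1 the members' median was -0.18 for burn against sham and -0.19 for excision against sham, and in batch 2 it was 0.29 and 0.27, where 2 members had an unadjusted p under 0.05 for burn against sham. The summed share was 0.27% ± 0.0679 (SD, n = 5) in batch 1 sham and 0.193% ± 0.0269 (SD, n = 3) in batch 2 sham, while the injured groups lay between 0.214% and 0.227% in both batches. The test of the batch difference called no member (and 0.00% of genes) in each of the 3 comparisons. For burn against sham, 1 of the 9 had an unadjusted p under 0.05 in that test, beside 19.4% of all genes. Without the 3 libraries whose titles disagree, the medians were 0.06, 0.15 and -0.07 for burn against sham, burn against excision and excision against sham.

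Piriform cortex libraries spread the most. The 5 sham libraries had 1083, 200, 591, 334 and 319 CPM of Mobp, the 4 excision libraries 374, 183, 309 and 194, and the 5 burn libraries 583, 399, 299, 313 and 310. For Mbp the excision libraries had 1208, 738, 1260 and 813 CPM and the burn libraries 1652, 1292, 949, 1109 and 1138. Sham replicates 1 and 3 lay above all other piriform libraries for both transcripts, and the remaining sham libraries lay among the injured ones.

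All 9 members were lower after excision than in sham, with a median log2 fold change of -0.45, beside -0.020 over all genes, and no gene in the region was called (0.00%; 1102 of 21004 with an unadjusted p under 0.05). Mbp differed by -0.80 (SE 0.29, 95% interval -1.41 to -0.19, edgeR adjusted p = 0.915) and Mobp by -0.96 (SE 0.40, 95% interval -1.80 to -0.12, adjusted p = 0.915). Their unadjusted p was under 0.05, and DESeq2 called none. Without sham replicate 1 Mbp stood at -0.53, Mobp at -0.45 and the median at -0.28, and no member had an unadjusted p under 0.05. Without sham replicate 2, the one titled as excision, the median was -0.59 and 7 members had such a p. Burn against sham gave a median of -0.23 (beside 0.005; 0.00% called, 896 genes at an unadjusted p under 0.05), with 8 of 9 lower, and it was -0.01 without sham replicate 1 and -0.37 without sham replicate 2. Burn against excision gave 0.30 (beside 0.020; 0.00% called, 1658 genes), with 8 of 9 higher. In neither comparison did a member have an unadjusted p under 0.05 with all libraries; without sham replicate 2, 2 members did for burn against sham.

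**Figure D2:**
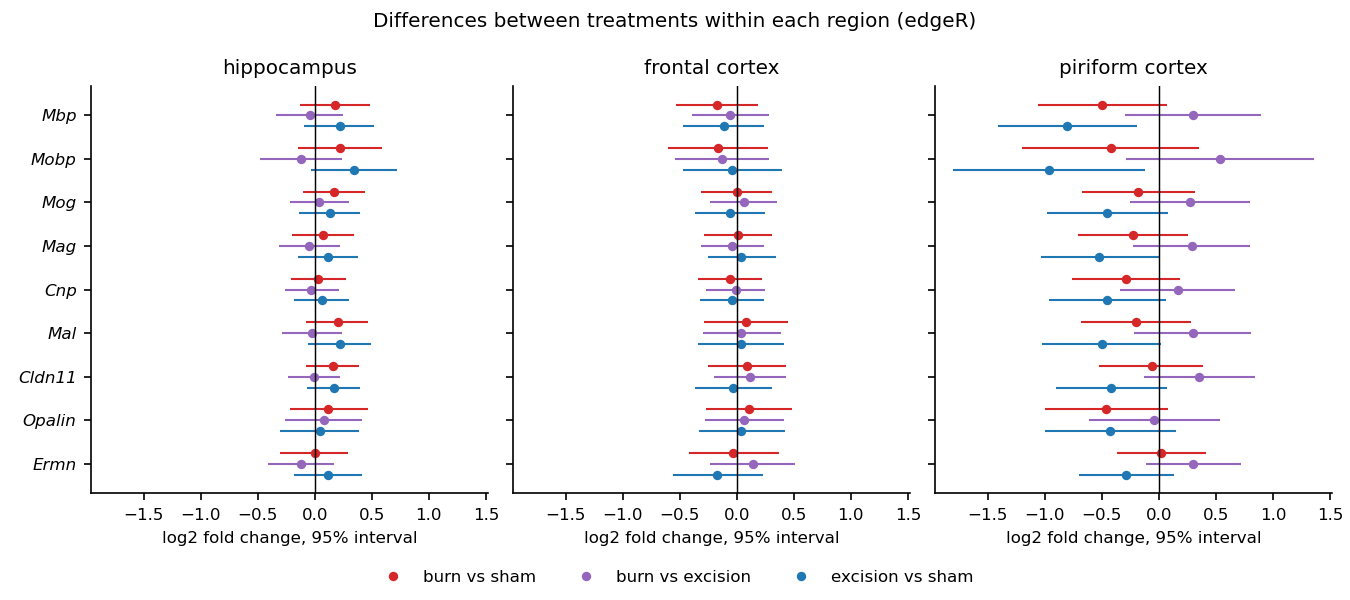
Log2 fold changes of the 9 transcripts between treatments in each region, as points with 95% intervals from the edgeR fit. Nearly all intervals cross 0; Mbp and Mobp for piriform excision against sham, at -0.80 and -0.96, do not, and neither passes after adjustment over all genes.

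The burn effect was also compared between regions. No member was called for a difference in its burn against sham effect between hippocampus and frontal cortex, piriform and frontal cortex or hippocampus and piriform cortex, where 0.00%, 0.00% and 0.00850% of 23526 genes were called. The largest of these differences was 0.69 for Mbp, higher in the hippocampus than in the piriform cortex (SE 0.30, edgeR adjusted p = 0.555). For Opalin the difference between piriform and frontal cortex was -0.65 (SE 0.32, adjusted p = 0.882). Without the 4 libraries of disagreeing title, a fit added once the data had been examined, 0 members were called in these 3 comparisons. The Mbp value was then 0.84 (SE 0.30, edgeR adjusted p = 0.476) and the Opalin value -0.83 (SE 0.33, adjusted p = 0.714). The members' medians went from 0.06 to -0.02 for hippocampus less frontal cortex, from -0.30 to -0.52 for piriform less frontal cortex and from 0.35 to 0.49 for hippocampus less piriform cortex.

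The members varied widely between libraries of the same treatment. Within groups of the same region, batch and treatment, the SD of the log2 level ran from 0.29 for Cnp and Cldn11 in the hippocampus to 0.67 for Mobp in the piriform cortex. The median SD of genes of like level was 0.12 to 0.21, and 87.5% to 98.8% of those genes varied less than the member. From the lowest to the highest library, Mbp ranged 2.75-fold in the hippocampus, 2.91-fold in the frontal cortex and 3.85-fold in the piriform cortex, and Mobp 3.7-fold, 2.92-fold and 5.92-fold.

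The members moved up and down together. Across libraries, with each group's mean removed, the correlation of a member with the mean of the other 8 was 0.89 to 0.98 in the hippocampus (n = 29), 0.84 to 0.94 in the frontal cortex (n = 28) and 0.86 to 0.99 in the piriform cortex (n = 14), Ermn aside. These values are descriptions of libraries that share depth and dissection, with no test. Mog and Cnp, the pair with the first promoters above, correlated at 0.98, 0.99 and 0.98. Mbp and Mobp, both basic proteins of compact myelin, correlated at 0.97 in each region. Single libraries were low or high for the whole set: hippocampus excision replicate 8 was lowest of its group for all 9 members, and frontal cortex burn replicate 4 was lowest of its group for 7.

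**Figure D3:**
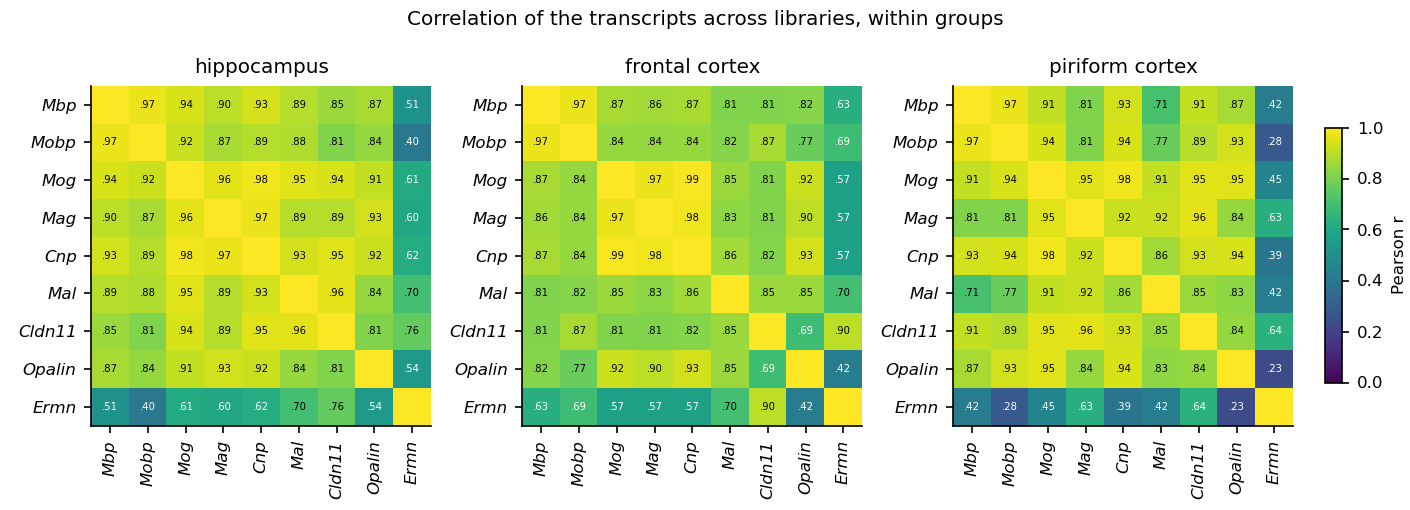
Pearson correlation of each pair of transcripts across the libraries of a region, after removal of the mean of each region, batch and treatment group (hippocampus n = 29, frontal cortex n = 28, piriform cortex n = 14). Mog, Mag and Cnp form a tight block, at 0.92 to 0.99, and Ermn has the lowest values, from 0.23 to 0.90.

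Genes outside the set followed the same libraries. Among 15015 other genes, the 10 most alike were Prr18, Fa2h, Galnt6, Trf, Tmem63a, Bcas1, Ttyh2, Gltp, S1pr5 and Qdpr, with a lowest correlation over the regions of 0.91 (Prr18) to 0.84 (Qdpr). Fa2h makes the hydroxylated fatty acids of myelin lipids, Trf is transferrin, an iron carrier that oligodendrocytes secrete, and S1pr5 is a lipid receptor of the lineage. The median correlation of all other genes was 0.01, 0.02 and -0.03 in hippocampus, frontal and piriform cortex. Most opposite were Sh3gl2, an endocytic protein of nerve terminals, and Pkd1l3, Bbs5, Vezt and 5031425E22Rik, whose highest values ran from -0.54 (Sh3gl2) to -0.44 (5031425E22Rik). The place of Pkd1l3 was not stable: it had rank 26 by Spearman correlation and rank 32 without the shallow libraries, where its highest value was -0.37.

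By stage of the lineage, 20 other structural myelin genes had a median correlation of 0.80, 0.73 and 0.72 with the members in the 3 regions. The 12 transcription factors had 0.61, 0.53 and 0.63, and 20 genes of myelin lipid synthesis and oligodendrocyte metabolism 0.52, 0.48 and 0.39. The 15 genes of precursors and newly formed cells had 0.05, 0.20 and 0.29. In the same order, 14 of 20, 5 of 12, 7 of 20 and 0 of 15 genes exceeded 0.5 in all 3 regions. The last list joins stages whose genes differed. Of the newly formed markers, Enpp6 had 0.73, 0.76 and 0.50 and Gpr17 0.35, 0.29 and 0.40. Of the precursor markers, Pdgfra had -0.06, 0.06 and -0.58 and Cspg4 -0.05, 0.58 and 0.55.

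Markers of other tissues and cell types were set beside the members in each library. In the frontal cortex, 7 striatum markers, among them the dopamine receptors Drd1 and Drd2 and the adenosine receptor Adora2a, summed to 114 to 1179 CPM in burn, 149 to 989 in excision and 140 to 1516 in sham, all 7 being detected. Their mean log2 level correlated with the mean of the members at r = 0.78 (rho 0.68, n = 28), at 0.75 without the 2 libraries farthest from the median, and at 0.88 and 0.81 in batches 1 and 2. In the piriform cortex the marker sums were 410 to 1452 CPM in burn, 219 to 896 in excision and 187 to 1718 in sham, with r = 0.47 (rho 0.48, n = 14) and 0.36 without the 2 farthest. In the hippocampus the sums were 108 to 181 CPM and r was -0.10. Of 7 thalamus markers, summing to 77.9 to 273 CPM in the hippocampus, the mean correlated with the members at r = 0.50 there (rho 0.38, n = 29), at 0.76 in batch 1 and 0.10 in batch 2, where it was -0.66 without the 2 farthest libraries. It was -0.02 in the frontal and 0.08 in the piriform cortex. Choroid plexus markers had r = 0.46 in the frontal cortex (0.45 and 0.52 in batches 1 and 2), 0.51 in the piriform cortex and -0.08 in the hippocampus. Without the 2 farthest libraries the values were 0.41 in the frontal cortex (0.29 in batch 2) and 0.42 in the piriform cortex. Most of these markers were near the floor in both cortices, with 1 or 2 of 6 at 1 CPM or more in each group. Their sums were 2.17 to 25.6 CPM in the frontal and 2.1 to 205 CPM in the piriform cortex. In the hippocampus astrocyte markers had 0.40, microglia markers 0.42 and blood markers -0.45, the last -0.08 without the 2 farthest libraries. Neuron markers had -0.54 in the piriform cortex, and -0.13 without the 2 farthest. These are descriptions with no test, and the part of any of these sources in the members' levels was not tested.

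With the striatum marker mean added to the fit, an alternative picked once the data had been examined, the members' medians in the frontal cortex were 0.05 for burn against sham, 0.20 for burn against excision and -0.14 for excision against sham. For burn against excision 3 of the 9 then had an unadjusted p under 0.05, and none was called. In the piriform cortex the medians were -0.45, 0.17 and -0.54, and 0 members were called. There 2 members had an unadjusted p under 0.05 for burn against sham, 0 for burn against excision and 7 for excision against sham, beside 2 for the last without the covariate. The part of tissue make-up in these differences was not tested beyond this fit. Markers of Schwann cells, the myelin-forming cells of nerves, summed to 3.02 to 30.5 CPM, with 2 of 7 at 1 CPM or more in every group, and Pmp2 was under 0.1 CPM in all groups.

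**Figure D4:**
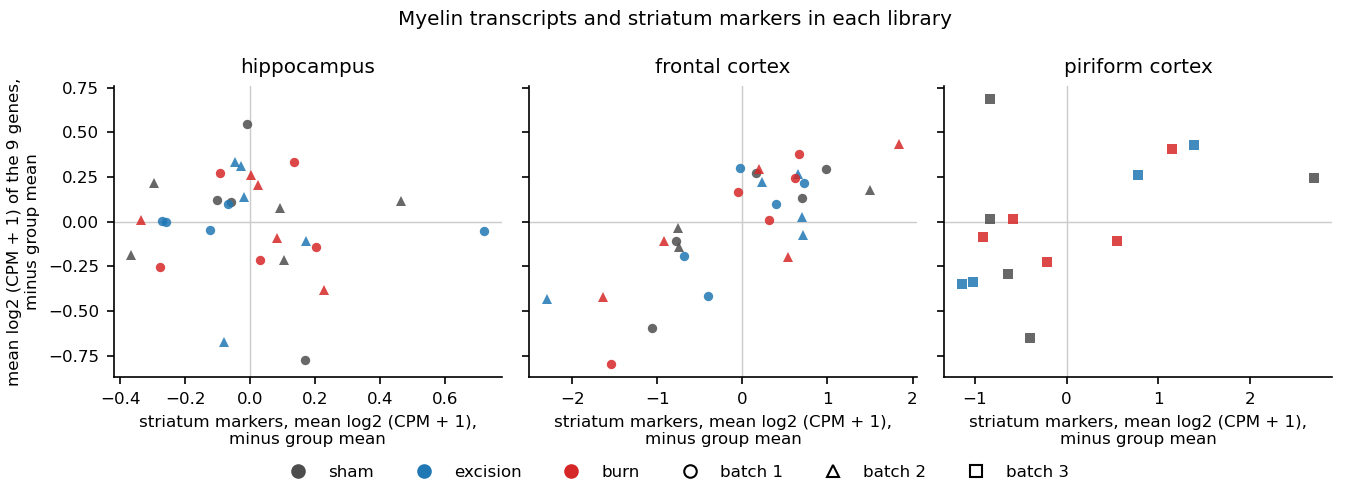
Mean log2 level of the 9 myelin transcripts against that of 7 striatum markers in each library, both minus the mean of the library's region, batch and treatment group (each panel has its own horizontal range). In the frontal cortex the points rise together (r = 0.78), in the hippocampus they do not (r = -0.10), and the high piriform sham replicate 1 has low striatum markers.

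Ermn stood apart. Its correlation with the mean of the other 8 was 0.61, 0.68 and 0.44 in hippocampus, frontal and piriform cortex, and Cldn11 was its nearest partner, at 0.76, 0.90 and 0.64. In piriform sham replicate 1, where Mbp was 2841 CPM, Ermn was 31 CPM, beside 26.7 to 37.1 in the other 4 sham libraries. In piriform excision replicate 3, Ermn was 43.4 CPM, beside 21.7, 19.1 and 20.3 in the other excision libraries, while Mbp there was 1260 CPM, beside 1208, 738 and 813.

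The distance of Ermn from the rest followed a general feature of the libraries. An index was built, after the data were seen, from protein-coding genes at 10 CPM or more on average, members left out: the mean log2 level of the 2412 genes with the longest merged exons (from 7.57 kb) minus that of the 2412 shortest (up to 3.18 kb). Ermn relative to the mean of the other 8 correlated with this index at r = 0.79 in the hippocampus (rho 0.74, n = 29), 0.90 in the frontal cortex (rho 0.91, n = 28) and 0.89 in the piriform cortex (rho 0.78, n = 14). Without the 2 libraries farthest from the median the values were 0.80, 0.90 and 0.76. Within batches 1 and 2 they were 0.53 and 0.94 in the hippocampus and 0.94 and 0.87 in the frontal cortex. Ermn is itself not of the long end. The members run from 1.7 kb of merged exons (Mog) to 8.47 kb (Mbp), with Ermn and Cnp both at 3.64 kb and Mobp at 6.85 kb. The mean of all 9 members correlated with the index at only -0.08 and -0.12 in hippocampus and frontal cortex, and at -0.66 in the piriform cortex, which was -0.38 without the 2 farthest libraries.

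Mobp relative to the other members except Ermn went the opposite way in the piriform cortex (r = -0.84) and the hippocampus (r = -0.43), and not in the frontal cortex (r = 0.05). The batches differed: batches 1 and 2 gave -0.11 and -0.59 in the hippocampus and 0.33 and -0.22 in the frontal cortex. The index itself overlapped between treatments: in frontal cortex batch 1 its medians were 0.11 in sham, 0.04 in excision and 0.19 in burn, and in the piriform cortex 0.17, 0.08 and 0.21. In the same order they were -0.20, -0.11 and -0.24 in hippocampus batch 1 and 0.04, 0.10 and -0.11 in hippocampus batch 2. In frontal cortex batch 2 they were 0.11, -0.01 and 0.09. With the index as a covariate 0 members were called in any of the 9 comparisons, while the genes called for hippocampus burn against sham went from 202 to 993 and for frontal cortex burn against sham from 59 to 553. The piriform medians moved to -0.05 for burn against sham, 0.41 for burn against excision and -0.36 for excision against sham. Why long and short transcripts shift against each other in these libraries was not tested.

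**Figure D5:**
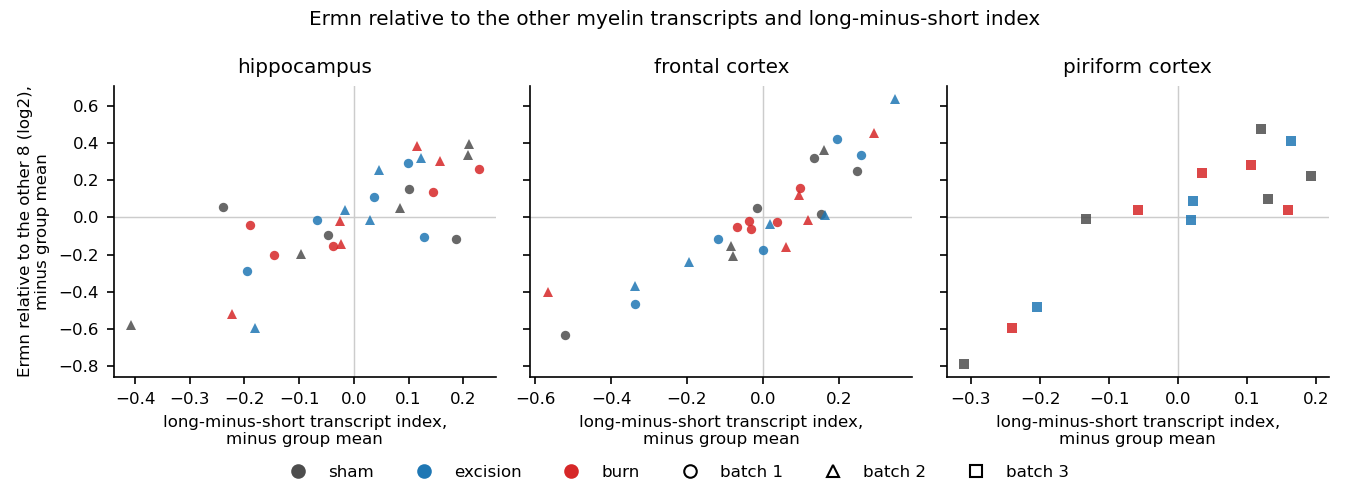
Ermn relative to the mean of the other 8 transcripts (log2) against the index of long minus short transcripts in each library, both minus the mean of the library's group (each panel has its own horizontal range). The points rise together in all 3 regions (r = 0.79, 0.90 and 0.89). Removal of the group means centres every treatment alike, so the plot cannot show whether treatments differ on either axis.

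Beyond the members, 1 gene of the newly formed stage passed the test after burn, near the threshold. Gpr17, a receptor that marks the passage from precursor to myelinating cell and is switched off before myelin is made, had a lowest, median and highest level of 42.2, 52.6 and 71.4 CPM in frontal cortex sham, 42.8, 51.5 and 64.2 in excision and 35.4, 40.4 and 50.3 in burn. The burn median lay below the lowest sham and excision library, and the ranges overlapped. Gpr17 fell by 0.38 on the log2 scale between burn and sham (SE 0.08, edgeR adjusted p = 0.0399), in a comparison where 0.280% of genes were called, and its difference between burn and excision was -0.33 (SE 0.08, adjusted p = 0.0747). Excision and sham differed by -0.05 (SE 0.08, adjusted p = 0.969). The call was lost when any 1 of 14 of the 28 libraries was left out (burn replicates 1, 2, 3, 4, 7, 9 and 10, excision replicate 3 and sham replicates 2, 3, 5, 6, 7 and 8), with log2 fold changes of -0.43 to -0.32 throughout. Of 11 other settings it held in 4: DESeq2's size factors (adjusted p = 0.0425), DESeq2's own test (0.00451), and the striatum (0.0432) and transcript length (0.0150) covariates. It was lost in 7: without a count filter (-0.37, edgeR adjusted p = 0.102), with a replicate block (-0.36, adjusted p = 0.228), without a batch term (-0.41, adjusted p = 0.0563), in batch 1 alone (-0.43, adjusted p = 0.0522), in batch 2 alone (-0.32, adjusted p = 0.819), without the libraries of disagreeing title (-0.39, adjusted p = 0.0742) and with the treatment taken from titles (-0.29, adjusted p = 0.398).

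In the hippocampus Gpr17 stood at 40.8, 53.4 and 57.1 CPM in sham, 44.4, 51.4 and 62.4 in excision and 35.2, 42.8 and 52.3 in burn. The value for burn against sham was -0.24 (SE 0.07, edgeR adjusted p = 0.0894), for burn against excision -0.24 (SE 0.07, adjusted p = 0.114) and for excision against sham 0.00. In the piriform cortex burn against sham gave -0.12 (SE 0.11, adjusted p = 0.889). Gpr17 was the only 1 of 15 precursor and newly formed genes called for frontal cortex burn against sham, where 13 of the 15 had values below 0 with a median of -0.09, and 5 had an unadjusted p under 0.05. Over all genes of that comparison, 46.4% were above 0, the median was -0.016 and 13.0% had an unadjusted p under 0.05. Enpp6, the other marker of newly formed cells named above, did not follow Gpr17. Its frontal cortex medians were 5.42 CPM in sham, 5.07 in excision and 6.58 in burn, with overlapping ranges and no call. In the same order they were 5.02, 5.21 and 4.69 in the hippocampus and 4.49, 4.17 and 4.87 in the piriform cortex.

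Among the lipid and metabolism genes, Insig1, a sterol sensor that restrains cholesterol synthesis, was the only 1 of 20 called, for hippocampus burn against sham (0.25, SE 0.05, edgeR adjusted p = 0.0217), where 1.03% of genes were called. The call was lost without sham replicate 2 (edgeR adjusted p = 0.0522) or 5 (adjusted p = 0.0524). It held in 7 of 10 other settings and was lost in batch 1 alone (0.25, edgeR adjusted p = 0.0728), in batch 2 alone (0.23, adjusted p = 0.404) and with the striatum covariate (0.24, adjusted p = 0.0509). None of the 20 other structural genes and none of the 12 transcription factors was called in any of the 9 comparisons between treatments. For piriform excision against sham, 19 of the 20 structural genes had values below 0, with a median of -0.36, and 10 had an unadjusted p under 0.05. Over all genes there, 0.00% were called, 5.25% had such a p, 54.6% were below 0 and the median was -0.020. Without piriform sham replicate 1, 18 of the 20 were below 0, with a median of -0.30, and 4 had such a p; without sham replicate 2, titled as excision, the counts were 19 and 12 and the median -0.46.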

How the data were processed

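Gene counts were used as the authors deposited them, in 1 table of whole numbers for 71 libraries of 100-base single-end reads. Per the submitters' processing notes, the tools included STAR, fastp, DESeq2 1.24.0 and FastQC 0.11.3, with the GRCm38 build; the sources used here give neither the annotation release nor the strand setting of the counting. Of 55416 identifiers, 52135 matched GENCODE M21 and 3281, with 0.809% of the counts, did not. Groups come from the treatment field of the labels.

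Each region was fitted on its own with edgeR 4.0.16 in R 4.3.3 (TMM, filterByExpr, quasi-likelihood test; treatment, and batch where there were 2), and p-values were adjusted over all genes tested, with a threshold of 0.05. Sham libraries of the 3 regions were fitted together in groups of region and batch, and all 71 libraries in groups of region, batch and treatment, with the batches of a region averaged in each comparison. All 9 members are named; from each other gene list at most 5 called genes per comparison are named, by smallest p. Likeness is Pearson's r of log2 CPM (prior count 2) with the mean of the members, centred on region, batch and treatment; the 10 highest by the lowest and the 5 lowest by the highest of the 3 regions are named. Members and lists were chosen with earlier results of these data known. Alternatives included DESeq2 1.42.0, other filters and scalings, batches alone, titles as treatment, a replicate block and each library left out; the 2 covariates, the comparison of regions without disagreeing titles and the structural list without 1 piriform sham library were added after the data were seen. No pair of libraries within a group was a duplicate (270 pairs, lowest chi-square per degree of freedom 4.36). The fits were tested on simulated data. Markers of neighbouring tissue are reported as sums and means over their list, and 1 of them is not reported here by itself.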

Additional observations from a re-analysis of the deposited data

Results flagged for a closer look

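Each of the 9 members and their summed share was examined in every region and treatment group for a library far from the rest, in 90 checks. Of these, 8 were flagged. Chance gives about 1 in 20 for a single check, but the members move together, so the checks are not independent and the count cannot be set against that rate. Hippocampus excision replicate 8 was the lowest of its 10 libraries by a wide gap for Mbp (771 CPM, next 1331), Mog (28.5 CPM, next 43.9) and Mal (96 CPM, next 168), and for the summed share of the 9 transcripts (0.152% of counts, next 0.248%). Piriform burn replicate 1 was the highest of 5 for Mag (178 CPM, next 134), Mal (174 CPM, next 136) and Opalin (22.4 CPM, next 13.7). Piriform excision replicate 3 was the highest of 4 for Ermn (43.4 CPM, next 21.7).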

How the results depend on the processing

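No member changed direction while called: of 3402 member values under an alternative, 3149 kept direction and call, 247 changed sign without being called in either fit and 6 became called, with a smallest edgeR adjusted p of 0.0272. Those 6 arose where 1 sham library was left out, which gave 0 to 1 members called between sham hippocampus and frontal cortex and 0 to 2 between sham hippocampus and piriform cortex; 0 were called in every other left-out fit. The summed share without Mbp was 0.125% of counts in the hippocampus, 0.106% in the frontal cortex, 0.106% in the piriform cortex and 0.114% over all libraries.

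Counts over all genes moved more. For hippocampus burn against sham, 202 genes became 31 in batch 2 alone, 1324 in batch 1 alone, 629 with DESeq2, 123 without a filter, 106 without a batch term and 75 with the striatum covariate, and 50 to 745 with 1 library left out. For hippocampus burn against excision, 41 became 0 in batch 2 alone and 303 with DESeq2, and 9 to 326 with 1 left out. For frontal cortex burn against sham, 59 became 0 in batch 2 alone, 1328 in batch 1 alone and 328 with DESeq2. With 1 library left out it was 19 to 206. Burn against excision there gave 44, 0, 1318 and 175 in the same order, and 10 to 284 with 1 left out. With the treatment taken from titles, 59 became 0 for burn against sham and 44 became 1 for burn against excision. Without the libraries of disagreeing title the counts were 32 and 15. Piriform burn against excision went from 0 to 59 with DESeq2, and sham hippocampus against frontal cortex from 8656 to 5533 in batch 2 alone.

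The sample numbers in the titles were checked as a pairing only within a region and batch, between libraries of different treatment. There the median correlation of same-numbered libraries was -0.07 to 0.08. Whether libraries of different regions share an animal was not examined. The sample numbers were also fitted as a replicate block, without the libraries of disagreeing title. Frontal cortex sham replicate 5 was left out of it too, because its title repeats the batch and sample number of sham replicate 1. With this block 0 members were called. The genes called for frontal cortex burn against sham went from 59 to 0, and the members' median from 0.00 to 0.09. The block could not be fitted between piriform and other sham libraries, which share no batch.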
